A study of Rattus norvegicus with 28 samples.

Results

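Gad2, Slc6a13 and Slc1a6 encode proteins that make GABA, the main inhibitory transmitter of the adult brain, or that carry GABA and glutamate back into cells. They were taken as every array feature that the platform annotation assigns to these genes. That gave 3 features of the 228 on the array, 1 for each gene: feature 77 for Gad2, feature 208 for Slc6a13 and feature 206 for Slc1a6. No other feature stood for any of them, so none of the results could be checked on a second probe.

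The arrays compared pain-related regions of adult male rats that had been injected as newborns with the same regions of uninjected rats. Each of 28 custom oligonucleotide arrays carried RNA of an injected animal in channel 1 (Alexa 647) and of an uninjected control in channel 2 (Alexa 546). The labels name the periaqueductal grey of the midbrain only as PAG and the rostral ventromedial medulla, in the brain stem, only as RVM; LDH is the lumbar dorsal horn, in the spinal cord. The groups were PAG carrageenan (5 arrays) and PAG saline (5 arrays), RVM carrageenan (5 arrays) and RVM saline (4 arrays), and LDH left (5 arrays) and LDH right (4 arrays). Carrageenan animals received 0.25% carrageenan, a seaweed polysaccharide that inflames tissue, in 0.9% saline at 1 µl per g body weight into the left hindpaw on postnatal day 3; saline animals received saline into the same paw on that day. Both LDH groups came from carrageenan-injected animals, and no saline-injected LDH group was analysed here. All animals were weaned on day 21 and kept to day 59, and the uninjected controls were kept alike without an injection. The labels do not say whether the arrays of 1 group stand for separate animals, pools or repeats, so each p-value reflects array-to-array spread that may be technical.

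Each array gave 1 log2 ratio per feature, the level in the injected animal over that in the uninjected control. That direction is the likely one from the channels in the labels, and base 2 was inferred from the range of the values; the deposited table states neither. A ratio says how a gene differed from the control and not how abundant it was. An exact 0 was read as not measured, since 55.9% of all 6384 values were 0 while 0.001 occurred 9 times. The dyes were not swapped, so an effect of the dyes cannot be told apart from that of an injection where a group is set against its uninjected controls. Over the features that both arrays measured, 6 of 346 pairs of arrays with at least 20 such features correlated below -0.3, the lowest being PAG saline array 2 and RVM carrageenan array 4 (r = -0.511). With zeros kept as 0, 1 of 378 pairs did (r = -0.408, PAG saline array 3 and RVM carrageenan array 2). Each of these pairs joined a PAG saline or RVM saline array to an RVM carrageenan or LDH right array. In whole tissue, fewer cells of a type and less RNA per cell cannot be told apart.

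As background, glutamate decarboxylase turns glutamate into GABA, and Gad2 encodes its gad65 form, which is bound to synaptic vesicles in nerve terminals. Slc6a13 encodes GAT-2, a plasma membrane transporter that takes up GABA and taurine; in the rodent brain it is best known from the leptomeninges and blood vessels, and it is also made in liver and kidney. Slc1a6 encodes EAAT4, a glutamate transporter that also conducts chloride and is best known from cerebellar Purkinje cells. In descending pain control, GABA neurons of the PAG and RVM hold back the output neurons that project towards the dorsal horn, and opioids act in part by silencing those GABA neurons.

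The 3 genes were measured more often than most features. Gad2 had a ratio on 20 of the 28 arrays, Slc1a6 on 19 and Slc6a13 on 17, against a median of 10.5 arrays over all features. Of the 84 values, 33.3% were 0. Of these 28 gaps, 15 lay on 5 sparse arrays: none of the 3 genes was measured on PAG saline array 5, RVM carrageenan arrays 2 and 4 or LDH right arrays 1 and 3, which had ratios for 33, 30, 29, 7 and 45 features. The other 13 gaps were on 10 arrays with 65 to 146 measured features. A feature was tested only where each group of a fit had at least 3 measured arrays. This left all 3 genes tested in PAG, Gad2 and Slc1a6 in RVM, and none in LDH.

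**Figure D1:**
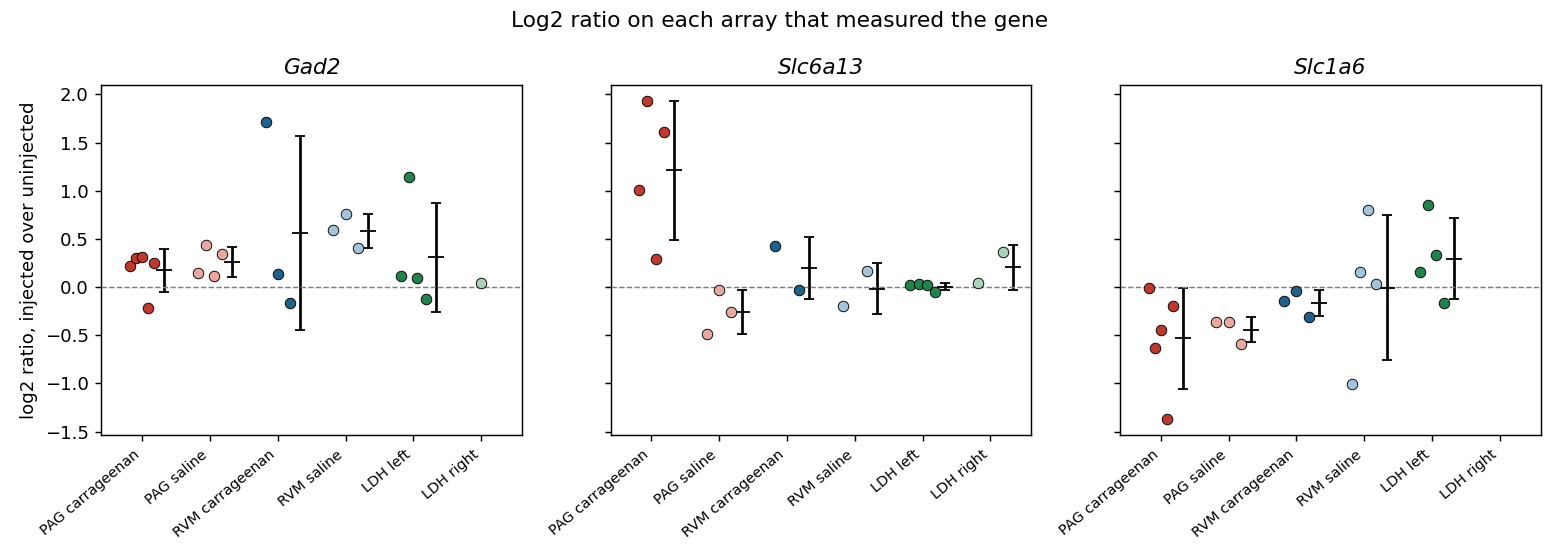
Log2 ratio (injected over uninjected, vertical axis) of Gad2, Slc6a13 and Slc1a6 on each array that measured them, by group; points are arrays, and the bar beside them is the mean ± SD. The 4 PAG carrageenan points of Slc6a13 lie between 0.291 and 1.929, all 8 PAG points of Slc1a6 lie below 0, and 17 of 20 Gad2 points lie above 0.

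Slc6a13, the GABA transporter, had its highest ratios in PAG after carrageenan. It read 1.012, 1.929, 0.291 and 1.612 on PAG carrageenan arrays 1 to 4, against -0.491, -0.036 and -0.263 on PAG saline arrays 1, 3 and 4. The groups did not overlap: every carrageenan array lay above 0 and every saline array below it. Among the 78 features tested in this comparison, 3 (3.85%) had groups that did not overlap.

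The mean of Slc6a13 was 1.21 ± 0.72 in PAG carrageenan (SD, n = 4) and -0.26 ± 0.23 in PAG saline (n = 3). The difference was 1.47 on the log2 scale (95% interval 0.49 to 2.46), or 2.78-fold (interval 1.40 to 5.51). It ranked second of 78 by p and seventh by size, and it did not pass after Benjamini-Hochberg adjustment over the 78 features (limma, adjusted p = 0.333, unadjusted p = 0.0103). In this comparison 0% of the features passed and 12.8% had an unadjusted p below 0.05. An exact two-sided permutation test over the 7 arrays gave p = 0.0571, with 0.0286 the smallest that 4 arrays against 3 allow. Since the groups did not overlap, no other split with the carrageenan side higher gave a larger difference. With all 6 groups in 1 limma fit, which takes the spread from every group, the adjusted p was 0.0442. That fit assumes 1 spread for all groups, but the SD was 0.72 in PAG carrageenan and 0.036 in LDH left. Its p therefore rests in part on arrays outside this comparison. Over all features, 0 to 1 passed in this comparison across the settings.

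Set against the uninjected controls, Slc6a13 in PAG carrageenan was 2.31-fold higher (95% interval 1.48 to 3.63) and passed (limma, adjusted p = 0.0342). It was 1 of 11 features called there (14.1% of 78), of which 7 were higher (8.97%); 33.3% had an unadjusted p below 0.05. The call was lost without PAG carrageenan array 1, 2 or 4 (adjusted p = 0.0709, 0.0825 and 0.113 by limma). It was also lost with zeros kept as 0 (0.0599), under quantile normalization (0.149) and with the PAG carrageenan arrays fitted alone (0.149). In PAG saline the gene did not pass (mean -0.26, 95% interval -1.01 to 0.48, limma adjusted p = 0.801), and 0% of the 78 features did.

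**Figure D2:**
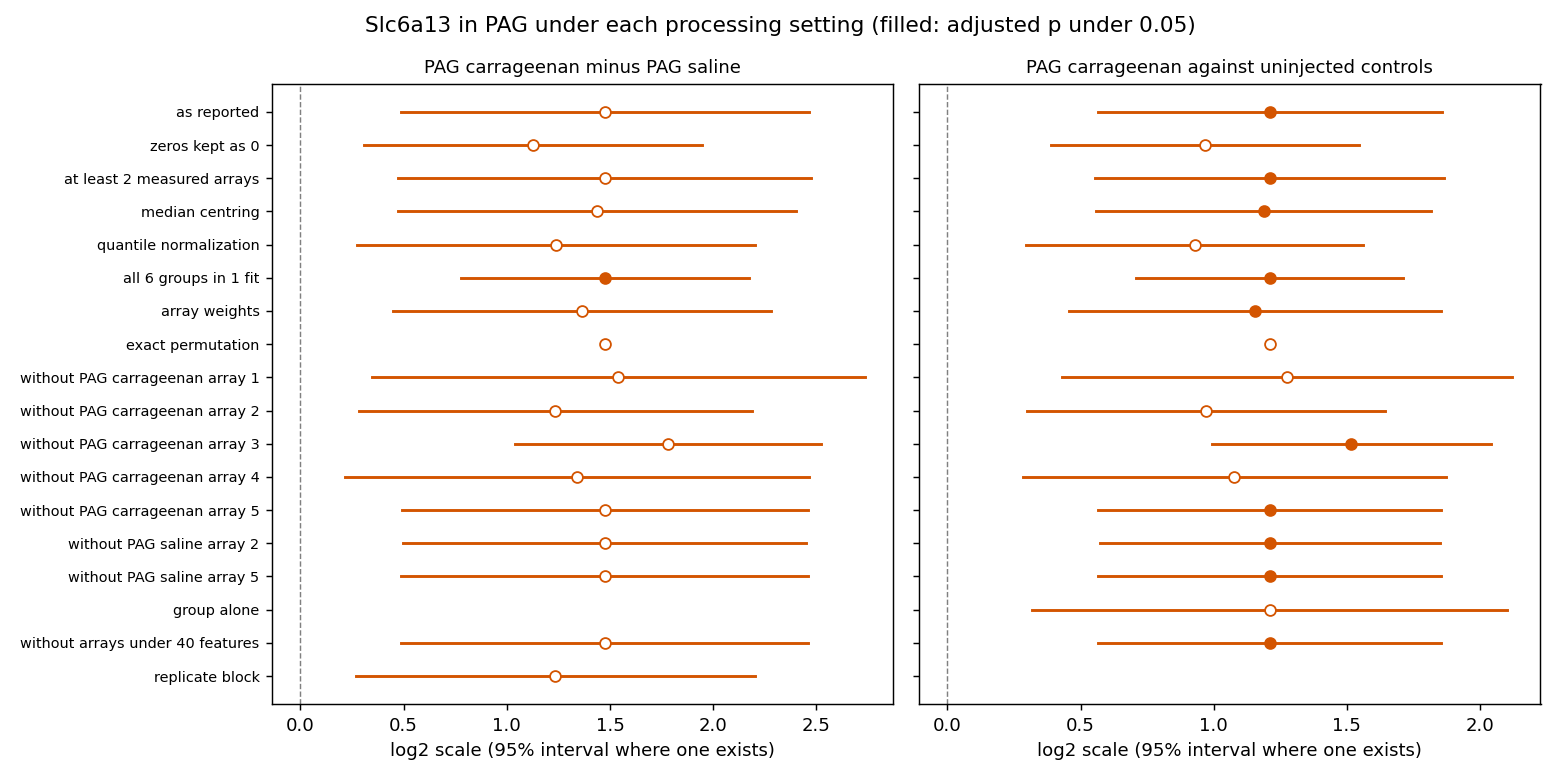
Slc6a13 in PAG under each processing setting: carrageenan minus saline on the left and carrageenan against uninjected controls on the right, on the log2 scale with 95% intervals; filled points have an adjusted p below 0.05. All points lie above 0, between 1.13 and 1.78 on the left and between 0.93 and 1.52 on the right, and the filled ones change with the setting.

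The arrays themselves differed along with this result. PAG carrageenan arrays measured 86 to 181 features and PAG saline arrays 33 to 95, and the part of that difference in the Slc6a13 result was not tested. Placed among the features measured on its own array, Slc6a13 lay at percentiles 86.2, 95.5, 71.5 and 87.0 on PAG carrageenan arrays 1 to 4, against 20.7, 43.6 and 27.4 on PAG saline arrays 1, 3 and 4. Since array medians lay near 0 (-0.061 to 0.083) and the measured features differed between arrays, these percentiles largely restate the signs of the ratios. Of the list of 8 meningeal and vascular marker genes only Slc6a13 itself was on the array, and the lists of neuronal, astrocyte, oligodendrocyte, microglial and housekeeping genes had 0 members there. A change in the share of those cells was therefore not tested.

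**Figure D3:**
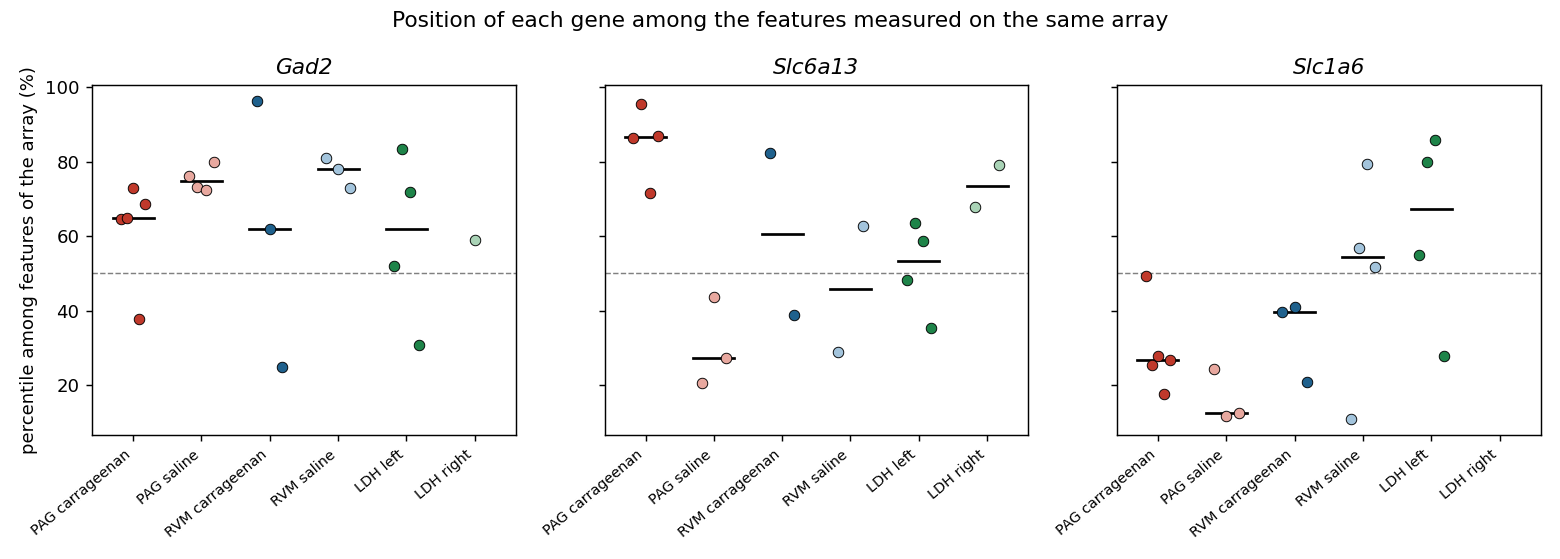
Percentile of each gene among the features measured on the same array (vertical axis, %), by group; points are arrays and the bar is their median. Slc6a13 lies at 71.5 to 95.5 in PAG carrageenan, against 20.7 to 43.6 in PAG saline.

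Outside PAG, Slc6a13 had small ratios on few arrays. It read 0.424 and -0.034 on RVM carrageenan arrays 1 and 5, against -0.202 and 0.17 on RVM saline arrays 1 and 4. Each RVM group thus held a value on either side of 0, and the groups overlapped. In LDH left it read 0.016, 0.032, 0.018 and -0.048 on arrays 2 to 5, and in LDH right 0.041 and 0.367 on arrays 2 and 4. The left-side values had an SD of 0.036, against 0.72 in PAG carrageenan, and both right-side values lay above all left-side ones. With as few as 2 arrays a side, 9.84% of 61 features had LDH groups that did not overlap.

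Neither region could be tested for Slc6a13 with at least 3 measured arrays per group. With at least 2, the differences were 0.21 for RVM carrageenan minus RVM saline (95% interval -0.88 to 1.31) and -0.20 for LDH left minus LDH right (interval -0.56 to 0.16), with limma adjusted p = 0.874 and 0.782; 1.02% of 98 and 0% of 61 features passed. The carrageenan against saline difference in PAG exceeded that in RVM by 1.26 under the same setting (interval -0.17 to 2.69, limma adjusted p = 0.493), so a difference between the regions was not shown. By mean ratio the groups ran from PAG carrageenan (1.21) through LDH right (0.204), RVM carrageenan (0.195), LDH left (0.0045) and RVM saline (-0.016) to PAG saline (-0.26). Each group overlapped its neighbours in that order.

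Slc1a6, the glutamate transporter, lay below its uninjected controls on every PAG array that measured it. It read -0.011, -0.631, -0.445, -1.369 and -0.195 on PAG carrageenan arrays 1 to 5, against -0.365, -0.366 and -0.593 on PAG saline arrays 2 to 4. The saline values lay inside the range of the carrageenan ones. The means were -0.53 ± 0.53 in PAG carrageenan (SD, n = 5) and -0.44 ± 0.13 in PAG saline (n = 3), a difference of -0.09 (95% interval -0.81 to 0.63, limma adjusted p = 0.911).

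Against uninjected controls, Slc1a6 had a 95% interval of -0.97 to -0.09 in PAG carrageenan (0.692-fold, limma adjusted p = 0.109, unadjusted p = 0.0243) and of -1.01 to 0.13 in PAG saline (0.736-fold, limma adjusted p = 0.473). Neither passed. It lay below 0 on 5 of 5 PAG carrageenan arrays, as did 16.9% of the 77 features measured on all 5. It lay below 0 on 3 of 3 PAG saline arrays, as did 21.1% of the 19 features measured on 3. PAG carrageenan array 4 held the lowest value of Slc1a6 and the only negative one of Gad2 in that group. Without it the PAG carrageenan mean of Slc1a6 was -0.32 (limma adjusted p = 0.139), and its carrageenan minus saline difference was 0.12 (limma adjusted p = 0.724).

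In RVM Slc1a6 was scattered after saline. It read -0.144, -0.043 and -0.312 on RVM carrageenan arrays 1, 3 and 5, against -1.011, 0.155, 0.798 and 0.034 on RVM saline arrays 1 to 4. All carrageenan values lay below 0 and inside the wider saline range. The means were -0.17 ± 0.14 in RVM carrageenan (n = 3) and -0.006 ± 0.75 in RVM saline (n = 4), a difference of -0.16 (95% interval -1.17 to 0.85, limma adjusted p = 0.888), and 0% of the 56 features passed (7.14% had an unadjusted p below 0.05). The interval still holds a 1.81-fold higher and a 0.443-fold level, so the arrays leave a wide range of differences.

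In LDH left, Slc1a6 lay above 0 on 3 of the 4 arrays that measured it, as it did in RVM saline. On LDH left arrays 1 to 4 it read 0.16, 0.853, 0.333 and -0.162, a mean of 0.30 ± 0.42 (n = 4), and it was measured on 0 of the 4 LDH right arrays. Fitted on the LDH left arrays alone, a setting chosen after seeing the data, its interval was -0.27 to 0.86 (limma adjusted p = 0.521, with 0% of 92 features called). By mean ratio the order was LDH left, RVM saline, RVM carrageenan, PAG saline and PAG carrageenan. Neighbours in that order overlapped, except that the 3 PAG saline values lay below all 3 RVM carrageenan values, a separation that 4% of the 50 features with at least 3 arrays in both groups showed. Between regions, PAG minus RVM was -0.36 after carrageenan (95% interval -1.09 to 0.36) and -0.44 after saline (interval -1.45 to 0.57), with limma adjusted p = 0.651 and 0.692; 0% of 59 and 0% of 72 features passed, with 5.08% and 9.72% at an unadjusted p below 0.05. Single arrays moved both: the first was -0.15 without PAG carrageenan array 4, and the second was -0.77 without RVM saline array 1 and -0.17 without RVM saline array 3 (limma adjusted p = 0.772, 0.173 and 0.978).

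Cerebellar cells also make Gabra6, a GABA-A receptor subunit of granule cells, which was the only other gene of that marker list on the array (2 of 4 genes). It read -0.122, -0.815, -5.92, -1.639 and -1.175 on PAG carrageenan arrays 1 to 5 and was measured on no PAG saline, RVM or LDH right array. On LDH left arrays 1 and 2 it read -3.137 and -1.093, where Slc1a6 read 0.16 and 0.853. Both genes of the list thus lay below 0 on each of the 5 PAG carrageenan arrays. Of the 77 features measured on all 5, 16.9% did so. On LDH left arrays 1 and 2 the signs of the 2 genes were opposite. Fitted on the PAG carrageenan arrays alone, a setting chosen after seeing the data, Gabra6 did not pass (limma adjusted p = 0.24). The part of cerebellar tissue in the ratios of Slc1a6 was not tested.

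Gad2, the GABA-synthesising enzyme, had small positive ratios in most groups. It lay above 0 on 17 of the 20 arrays that measured it (85.0%). Of all measured values 50.7% lay above 0, but that is a share of single values. How many features were as one-sided as Gad2 was not counted. In PAG it read 0.221, 0.301, 0.312, -0.218 and 0.249 on carrageenan arrays 1 to 5, against 0.144, 0.441, 0.114 and 0.343 on saline arrays 1 to 4. The groups overlapped over most of their range.

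Its means were 0.17 ± 0.22 in PAG carrageenan (SD, n = 5) and 0.26 ± 0.16 in PAG saline (n = 4). The difference of -0.09 had a 95% interval of -0.43 to 0.26 (limma adjusted p = 0.831), or 0.740-fold to 1.20-fold, the narrowest of the 3 genes in this comparison. Against uninjected controls the interval was -0.06 to 0.40 in PAG carrageenan (limma adjusted p = 0.267) and 0.0022 to 0.52 in PAG saline (limma adjusted p = 0.383, unadjusted p = 0.0485). In PAG saline 11.5% of features had an unadjusted p below 0.05.

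In RVM, 1 array set the spread of Gad2. It read 1.71, 0.138 and -0.169 on RVM carrageenan arrays 1, 3 and 5, against 0.591, 0.756 and 0.402 on RVM saline arrays 1, 3 and 4. The saline arrays lay close together, and the carrageenan arrays on either side of them. The means were 0.56 ± 1.01 in RVM carrageenan and 0.58 ± 0.18 in RVM saline (n = 3 each). They differed by -0.02 (95% interval -1.38 to 1.34, limma adjusted p = 0.997). Against uninjected controls neither group passed (limma adjusted p = 0.964 and 0.391), where 1.79% and 5.36% of the 56 features did.

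In LDH left Gad2 read 0.118, 1.144, 0.089 and -0.123 on arrays 1 to 4, and on LDH right array 4, the only one of its group, 0.041. LDH left array 2 held the highest value there of both Gad2 and Slc1a6. Fitted on the LDH left arrays alone, Gad2 had an interval of -0.42 to 1.03 (limma adjusted p = 0.521). By mean ratio the order was RVM saline, RVM carrageenan, LDH left, PAG saline, PAG carrageenan and LDH right, and values of all neighbours with more than 1 array overlapped. PAG minus RVM was -0.39 after carrageenan (95% interval -1.37 to 0.60) and -0.32 after saline (interval -0.69 to 0.04), with limma adjusted p = 0.733 and 0.442.

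The effect of carrageenan against saline was also compared between PAG and RVM. PAG minus RVM was -0.06 for Gad2 (95% interval -1.10 to 0.97) and 0.07 for Slc1a6 (interval -1.06 to 1.20), with limma adjusted p = 0.922 for both; 0% of 48 features passed, and 6.25% had an unadjusted p below 0.05. As folds these intervals run from 0.466 to 1.96 for Gad2 and from 0.479 to 2.30 for Slc1a6, so the arrays do not exclude regional differences within them.

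**Figure D4:**
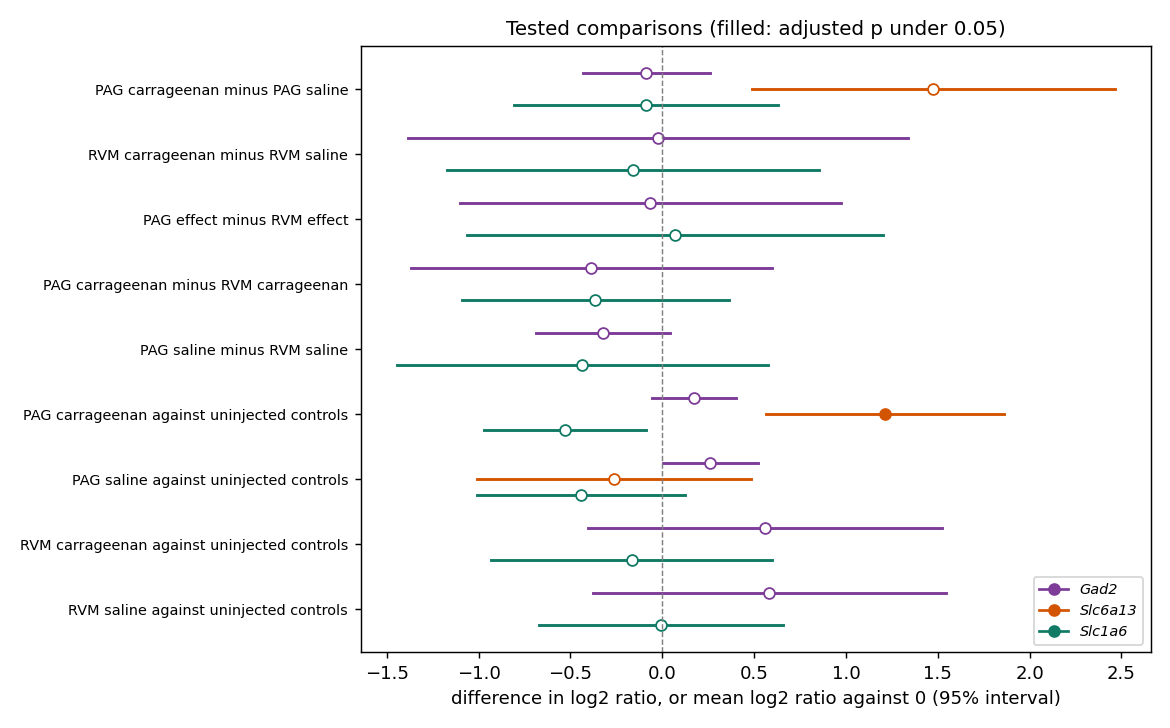
Tested comparisons of Gad2, Slc6a13 and Slc1a6 with 95% intervals (horizontal axis, log2 scale); filled points have an adjusted p below 0.05. Slc6a13 in PAG carrageenan against uninjected controls is the only filled point; the open point of Slc6a13 for PAG carrageenan minus PAG saline has an interval above 0 and an adjusted p of 0.333.

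The rest of the GABA and glutamate handling genes on the array were few. Of 5 genes for GABA synthesis, storage and breakdown 2 were present, of 4 GABA transporters 2, of 5 glutamate transporters 2, of 5 monoamine transporters 2, and of the glycine and the vesicular glutamate transporters 0. Gad1, the other glutamate decarboxylase gene, was measured on 1 PAG carrageenan array (0.897), on no PAG saline array, on RVM saline arrays 2 to 4 (-0.798, -0.508 and 0.398) and on LDH left array 2 (0.257). Slc1a1, a glutamate transporter of neurons, was measured on RVM saline arrays 2 and 4 (-1.575 and -4.753) and on LDH left array 2 (-3.412). None of these could be tested between groups.

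Slc6a11, another GABA transporter found mainly on astrocytes, read -2.241, -1.244, -0.255 and -1.227 on PAG carrageenan arrays 1 to 4. It therefore had the opposite sign to Slc6a13 on 4 of 4 PAG carrageenan arrays that measured both. For scale, 16.9% of the 77 features measured on all 5 of these arrays lay below 0 on each. Slc6a11, measured on 4 arrays, was not among those 77. How many features had the opposite sign to Slc6a13 on every shared array was not counted. On RVM saline array 4 both genes lay above 0 (Slc6a11 1.125, Slc6a13 0.17). On LDH left array 2 they read -0.287 and 0.016. Slc6a11 was measured on no PAG saline array, so no comparison with saline was possible. Fitted on the PAG carrageenan arrays alone, Slc6a11 averaged -1.24 (95% interval -2.22 to -0.26) and Slc6a13 1.21 (interval 0.32 to 2.10); under that setting, chosen after seeing the data, both had a limma adjusted p of 0.149, and 0.645% of 155 features passed.

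Among the monoamine transporters Slc6a4, the serotonin transporter, was the only feature tested within PAG. It read 1.272, 1.135, 0.63 and 0.469 on PAG carrageenan arrays 1, 2, 3 and 5, against 0.428, 0.323 and 0.694 on PAG saline arrays 1, 3 and 4. All 7 values lay above 0, and the groups overlapped. The difference was 0.39 (95% interval -0.21 to 1.00, limma adjusted p = 0.432). Against uninjected controls it was higher in PAG carrageenan (0.88, 95% interval 0.48 to 1.27, limma adjusted p = 0.0224), as another of the 11 features called there, and did not pass in PAG saline (0.48, interval 0.026 to 0.94, limma adjusted p = 0.383). Slc6a2, the noradrenaline transporter, had 2 features that disagreed in PAG carrageenan, at -1.38 ± 1.04 on feature 203 (n = 5) and 0.29 ± 1.20 on feature 204 (n = 4).

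**Figure D5:**
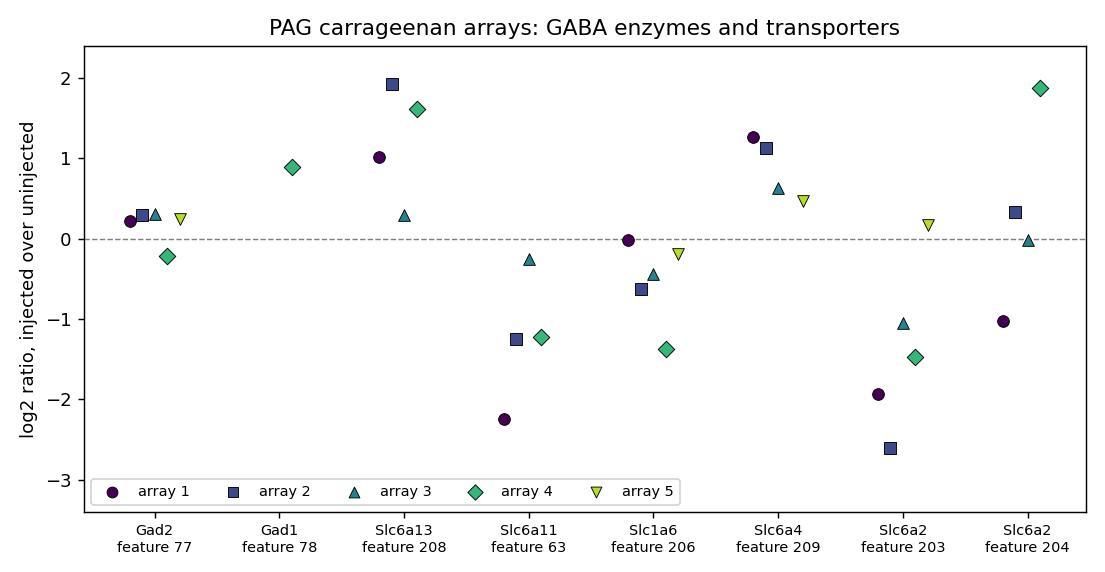
Log2 ratio (vertical axis) of GABA-synthesising enzymes and transporters on the 5 PAG carrageenan arrays; each marker shape is 1 array. Slc6a13 lies above 0 and Slc6a11 below 0 on all 4 arrays that measured both, and Slc1a6 lies below 0 on all 5.

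The receptors on which GABA and glutamate act did not pass between carrageenan and saline either. In PAG, 7 of 9 tested GABA receptor features were lower and 2 higher (median difference -0.19), 6 of 11 glutamate receptor features were lower (median -0.07), and 32 of all 78 features were lower (median 0.14). In RVM, 4 of 5 GABA receptor features were lower (median -0.29) and 5 of 8 glutamate receptor features higher (median 0.13), while 35 of all 56 features were lower and 21 higher (median -0.10). No feature of either list passed for carrageenan minus saline in PAG or RVM by limma. Against uninjected controls, 3 receptor features were lower in PAG carrageenan: Gabbr1 feature 76, a GABA-B receptor subunit (-1.58), Grik3 feature 88, a kainate receptor subunit (-4.99), and Grin2d feature 167, an NMDA receptor subunit (-0.99), each with a limma adjusted p of 0.0224. Other features of Gabbr1 and Grin2d were not called there, at -0.36 and 0.85 for Gabbr1 and 0.039 for Grin2d. Of all 78 features tested in PAG carrageenan, 14.1% were called, 4 lower and 7 higher. Grik3 feature 88 was also lower in RVM carrageenan (-4.06, limma adjusted p = 0.0134) and in RVM saline (-2.57, limma adjusted p = 0.0373), and Gabbr1 feature 76 in RVM saline (-1.08, limma adjusted p = 0.0373). Of all 56 features tested there, 1.79% were called in RVM carrageenan and 5.36% in RVM saline.

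No pair of the 3 genes had a correlation across arrays that passed its test. Across the 18 arrays that measured both, Gad2 and Slc1a6 had r = 0.366 and rho = 0.195 (permutation p = 0.136 and 0.436, adjusted over 3 pairs 0.322 and 0.979). Without the 2 arrays farthest from the median of Gad2, r was 0.284, and with each group centred on its mean it was 0.375. Gad2 and Slc6a13 had r = -0.101 and rho = -0.100 over 15 arrays (permutation p = 0.728 and 0.724, adjusted 0.728 and 0.979), with r = -0.165 without the 2 farthest arrays and 0.078 with groups centred. Slc6a13 and Slc1a6 had r = -0.370 and rho = -0.011 over 13 arrays (permutation p = 0.215 and 0.979, adjusted 0.322 and 0.979). That r turned to 0.259 without the 2 arrays farthest from the median of Slc6a13 and was -0.175 with groups centred.

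The features of other genes whose ratios followed each gene most closely were sought among those with at least 10 shared arrays, as a description. Arrays share their RNA and their labelling across features, which raises such values for any pair. Of 96 features, those most like Gad2 were Grin2b feature 169, an NMDA receptor subunit (r = 0.618, 20 arrays), Il11 (r = 0.490, 11 arrays) and Adra2a feature 33, an adrenergic receptor (r = 0.486, 19 arrays). The first rests on few arrays: without the 2 farthest, r was -0.023. Of 80 features, those most like Slc6a13 were Htr5b, a serotonin receptor (r = 0.720, 10 arrays), Tac1 feature 55, the substance P precursor (r = 0.717, 14 arrays), and Gabre, a GABA-A receptor subunit (r = 0.694, 15 arrays). Without the 2 farthest arrays these were 0.221, 0.356 and 0.489. Of 98 features, those most like Slc1a6 were Adra2a feature 33 (r = 0.617, 18 arrays), Cckbr, a cholecystokinin receptor (r = 0.524, 17 arrays), and Nts feature 184, the neurotensin precursor (r = 0.511, 18 arrays). These were 0.226, 0.276 and 0.469 without the 2 farthest.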

How the data were processed

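The log2 ratios are the authors' deposited values, 1 for each feature on each array. Per the labels' protocols, 5 µg total RNA per sample was reverse transcribed, hybridised to the custom arrays and labelled with a 3DNA kit; scanning, spot filters, background correction and normalization are not given in the sources used here. Values were used as deposited (array medians from -0.061 to 0.083). Gene names come from the platform annotation and were brought up to date with RefSeq's rat gene table (GRCr8): 202 of 228 had 1 symbol, 26 none and 0 several, and 191 matched the table. No genome build is stated, so no coordinates are given.

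Each of 12 comparisons was fitted over all eligible features with limma (two-sided moderated test; limma 3.58.1 under R 4.3.3), using only the groups compared, or both groups of a region for a group mean against 0, which leaves out the controls' own spread. Benjamini-Hochberg adjustment ran within each comparison, at 0.05. Missing ratios were dropped, not imputed. Correlations used 100000 permutations. Named features were those of the 3 genes, of related enzymes and transporters, of the marker lists, and the 3 most similar features per gene. The members and lists were chosen with earlier results of these data known. The number of arrays limits the precision.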

Additional observations from a re-analysis of the deposited data

Results flagged for a closer look

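Of 13 sets of at least 4 measured arrays looked at for the enzymes and transporters and Gabra6, 2 held an array far from the others of its group, where chance gives about 1 in 20. Gad2 on PAG carrageenan array 4 read -0.218, while the nearest other array of its group read 0.221. Gabra6 on PAG carrageenan array 3 read -5.92, while the nearest other array read -1.639.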

How the results depend on the processing

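Alternatives were zeros kept as 0, at least 2 measured arrays per group, median centring, quantile normalization, all 6 groups in 1 fit, array weights, an exact permutation test, the array number as a replicate block, and each array left out in turn; a group alone and no arrays under 40 features were added after seeing the data. Slc6a13 kept a positive PAG carrageenan minus PAG saline difference under all 16 alternatives (1.13 to 1.78, limma adjusted p 0.0442 to 0.457; 1.24 to 1.78 with 1 array left out). Leaving out PAG saline array 1, 3 or 4 gave no value, since under 3 measured arrays were left. It passed only with all 6 groups in 1 fit (1.47), where 1 of the 3 genes was called. Against uninjected controls in PAG carrageenan it stayed positive under all 16, and 0 of the 3 genes were called with zeros kept as 0 (0.97), under quantile normalization (0.93), by the exact permutation test (1.21, where 4 arrays allow no p below 0.125) and with the group alone (1.21); with 1 array left out it lay between 0.97 and 1.52 (limma adjusted p 0.0145 to 0.113), with 0 to 1 genes called. Slc1a6 in PAG saline passed under quantile normalization (-0.83, limma adjusted p = 0.0434), the only gene of the 3 called there (1). Calls were not particular to the 3 genes: over all features, 0 to 4 were called in PAG saline across the settings. The causes were not tested.

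Signs turned only for differences near 0, none of them called. For PAG carrageenan minus PAG saline, Gad2 was 0.0216 with array weights and -0.14 to 0.0103 with 1 array left out, and Slc1a6 was 0.49 under quantile normalization and -0.22 to 0.12 with 1 array left out. For RVM carrageenan minus RVM saline, Gad2 was 0.22 under quantile normalization, and Slc1a6 lay between -0.50 and 0.11 with 1 array left out. For PAG effect minus RVM effect, Gad2 was 0.0661 with zeros kept as 0, 0.25 with array weights and -0.11 to 0.0336 with 1 array left out, and Slc1a6 was -0.17 with zeros kept as 0 and -0.20 to 0.41 with 1 array left out. Slc1a6 in RVM saline was 0.0307 with array weights and -0.27 to 0.33 with 1 array left out.

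With the array number as a replicate block, Slc6a13 differed by 1.24 in PAG (95% interval 0.27 to 2.20, limma adjusted p = 0.392), and in RVM Gad2 and Slc1a6 turned to 0.25 and 0.013; no call changed. The labels state no pairing. In their deviations from the group means, same-numbered arrays correlated between -0.258 and 0.453 across the PAG groups, -0.058 and 0.236 across the RVM groups, -0.032 and 0.282 between PAG and RVM after carrageenan, and -0.072 and 0.265 after saline. No set had every pair above 0.1, so arrays were not paired; whether equal numbers mark 1 animal is unknown. With the block, PAG minus RVM for Slc1a6 was -0.051 after carrageenan and -0.77 after saline (limma adjusted p = 0.927 and 0.462). Over all features, calls ranged from 0 to 12 in PAG carrageenan against uninjected controls (11 as reported), 0 to 9 in RVM saline (3), 0 to 1 in RVM carrageenan (1) and 0 to 4 in PAG saline (0). Between groups they were 0 to 1 for PAG carrageenan minus PAG saline, 0 to 4 for RVM carrageenan minus RVM saline, 0 to 6 for PAG effect minus RVM effect and 0 to 4 for PAG minus RVM, with 0 as reported in each. By rank correlation, 2, 1 and 0 of the 3 features most like Gad2, Slc6a13 and Slc1a6 were again in the top 3.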
